A study of Homo sapiens with 6 samples.

Results

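The genes of replication origin licensing and of the replisome, the machine that copies DNA, were described here in a colorectal cancer cell line kept with or without GCA. They were taken by symbol from a list of 54 genes, and 54 of the 54 had a row among the 16229 gene symbols of the raw count table. The series' title names glycocholic acid, a bile acid joined to glycine, taken here as what GCA stands for. The 6 RNA-seq libraries fall into 2 groups of 3: MC38 cells of wild-type genotype after 24 hours with GCA, and the same cells after 24 hours without it (CON). All libraries share the cell line and the genotype, and the sources used here give neither the dose of GCA nor whether replicates were separate cultures. P-values therefore cover no more than the spread among these samples, which could be technical. The MC38 line is known to be of mouse origin, whereas the labels give a human organism and build and the table holds human symbols. The extraction text in the labels speaks of heart tissue, so heart markers were read too. The GCA libraries are titled fa, so every GCA value rests on their treatment label.

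Replication origins are licensed in G1, when the origin recognition complex (ORC), CDC6 and CDT1 load rings of the MCM2 to MCM7 proteins onto DNA. In S phase the kinase pair CDC7 and DBF4, with cyclin-dependent kinases, lets CDC45 and the GINS proteins join the ring and turn it into the active helicase. Polymerase alpha with primase starts each strand, and polymerases delta and epsilon extend it while held by the PCNA clamp, which the RFC complex loads. Transcription of many of these genes is known to be driven by E2F factors around the start of S phase, so their RNA level is known to vary with the share of cells that are cycling. In bulk RNA, fewer cells in S phase and less RNA per cell cannot be told apart.

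Promoter sequences are shown first because E2F sites are the best-known shared control element of these genes. RefSeq promoters (GRCh38.p14, from 250 bases before to 50 bases after the gene's start) were matched by symbol for 46 of the 54 genes, and MCM4, MCM5, GINS4, POLD3, RPA2, RPA3, DNA2 and DONSON had no match. The words searched on both strands were TTTCCCGC, TTTGGCGC, TTTCGCGC and TTTGCCGC, which can overlap each other. The 180 bases before the start are printed 5′ to 3′ on the gene's strand, with these words in capitals on either strand. MCM6 (chr2:135876444-135876623, minus strand), CDT1 (chr16:88803609-88803788, plus strand), POLA1 (chrX:24693738-24693917, plus strand), PCNA (chr20:5126623-5126802, minus strand) and RFC3 (chr13:33817969-33818148, plus strand) stand for genes that hold a word and were lower in GCA. LIG1 (chr19:48170345-48170524, minus strand) holds a word and did not pass the test. RFC4 (chr3:186806483-186806662, minus strand) holds none and was lower, and POLD2 (chr7:44123549-44123728, minus strand), whose start in the promoter table lies inside the gene's listed span, holds none and did not pass.
MCM6: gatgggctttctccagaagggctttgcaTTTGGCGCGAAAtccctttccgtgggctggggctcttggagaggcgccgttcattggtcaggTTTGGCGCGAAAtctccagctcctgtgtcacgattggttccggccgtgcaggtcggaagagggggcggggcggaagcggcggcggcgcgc
CDT1: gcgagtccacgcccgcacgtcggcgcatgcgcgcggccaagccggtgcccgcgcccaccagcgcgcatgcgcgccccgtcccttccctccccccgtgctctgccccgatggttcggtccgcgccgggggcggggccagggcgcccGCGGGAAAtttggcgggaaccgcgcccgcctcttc
POLA1: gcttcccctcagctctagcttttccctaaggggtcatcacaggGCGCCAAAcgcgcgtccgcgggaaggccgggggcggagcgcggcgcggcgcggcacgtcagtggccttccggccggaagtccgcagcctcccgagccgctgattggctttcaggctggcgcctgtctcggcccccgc
PCNA: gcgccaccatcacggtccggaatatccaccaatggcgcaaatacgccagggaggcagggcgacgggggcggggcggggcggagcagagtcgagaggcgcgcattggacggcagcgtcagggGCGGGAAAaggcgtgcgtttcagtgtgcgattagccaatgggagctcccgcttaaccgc
RFC3: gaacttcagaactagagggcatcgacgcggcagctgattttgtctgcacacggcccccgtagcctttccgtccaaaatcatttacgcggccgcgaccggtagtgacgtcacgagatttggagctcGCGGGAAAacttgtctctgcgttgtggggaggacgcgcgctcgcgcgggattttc
LIG1: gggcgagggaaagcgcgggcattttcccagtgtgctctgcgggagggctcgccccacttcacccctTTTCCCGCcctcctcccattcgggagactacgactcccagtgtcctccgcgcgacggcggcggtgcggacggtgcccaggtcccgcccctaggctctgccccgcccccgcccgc
RFC4: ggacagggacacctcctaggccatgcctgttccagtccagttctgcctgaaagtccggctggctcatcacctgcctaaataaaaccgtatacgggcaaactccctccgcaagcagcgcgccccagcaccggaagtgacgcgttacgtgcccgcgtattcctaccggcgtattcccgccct
POLD2: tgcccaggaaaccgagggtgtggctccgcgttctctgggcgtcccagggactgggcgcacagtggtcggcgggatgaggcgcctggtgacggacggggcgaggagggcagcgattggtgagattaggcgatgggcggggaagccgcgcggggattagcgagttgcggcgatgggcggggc
MCM6 carries the joined pair TTTGGCGCGAAA at 2 places, where a word on one strand overlaps a word on the other.

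An E2F word was present in 20 of the 46 matched promoters (43.5%), against 3.31% of all 35116 promoters of the same length and 5.38% of the 10155 promoters of tested genes. TTTCCCGC occurred in 10 of the promoters, TTTGGCGC in 7, TTTCGCGC in 6 and TTTGCCGC in 0. The CCAAT word stood in 25 of 46 (54.3%), against 34.6% of all promoters and 36.6% of those of tested genes. The word TTTGAA, known as the core of the element of late cell cycle genes, stood in 1 (DBF4; 2.17%), against 15.2% of all promoters and 9.22% of those of tested genes. The split of these genes by E2F word was not tested. Of the 20 with a word 19 were called lower (median log2 fold change -0.72, range -1.30 to -0.10), and of the 26 without one 22 were called lower (median -0.78, range -1.18 to 0.02). A match is a description of letters in this window only.

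Total counts ran from 18057453 to 20531612 per library, and the 54 genes had between 98 and 17134 counts in a library. Levels of a gene across libraries are given in CPM (counts scaled to TMM-adjusted library size), and levels between genes in FPKM (scaled to library total and gene length), as the authors deposited it. Libraries numbered 1 stood apart. CON 1 lay at 34.5 on the second principal component (18.1% of variance) against -14.7 and -17.8 for CON 2 and CON 3, and GCA 1 lay at 8.10 against -5.78 and -4.33. Results are therefore also given without these libraries. Of the colorectal epithelial markers, KRT8, KRT18, KRT19, EPCAM and CDX2 were present (4957, 1446, 2015, 276 and 30.8 CPM in CON), whereas KRT20, VIL1, CDX1, LGALS4, CDH17 and GPA33 had group means of at most 2.38 CPM (LGALS4 in CON). Summed markers ran from 7920 to 10100 CPM in CON and from 11100 to 12700 CPM in GCA for that epithelium, from 23.5 to 27.1 and 37.2 to 42.4 CPM for cardiomyocytes (8 of 10 genes with a row, the sum being mostly TNNI3 at 23.8 and 38.1 CPM), and from 27.9 to 32.3 and 32.1 to 42.0 CPM for leukocytes (7 of 7). For fibroblasts and endothelium (8 of 8) they ran from 11.3 to 12.7 and 16.7 to 18.4 CPM, and for hepatocytes (4 of 5) from 17.5 to 20.1 and 27.9 to 33.4 CPM. Among these markers PTPRC, CD3E, MYH6, MYH7, ACTC1, NPPA, COL1A2, DCN, LUM and ALB had at most 3 counts in any library. CD68, CORO1A, COL1A1, CPS1 and SERPINA1 were present, at means of 22.26, 7.317, 11.09, 13.91 and 5.047 CPM in CON. The part of the other marker genes in the results below was not tested.

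At every step most of the replication genes were lower in GCA. All 54 passed the filter on low counts, and 47 of them (87.0%) were called lower and 0 higher in the edgeR quasi-likelihood fit at a Benjamini-Hochberg adjusted p of 0.05 over 12604 genes. Over all tested genes 18.1% were called lower and 18.3% higher. The median log2 fold change was -0.74 for the 54 genes and -0.04 for all tested genes, and the median gene stood at 59.9% of its CON level. The called genes fell by between 0.40 (CDT1) and 1.30 (CLSPN) on the log2 scale, to between 40.5% and 75.7% of CON. In 44 of the 54 genes every GCA library lay below every CON library, against 24.3% of all tested genes, and in 0 every GCA library lay above. A log2 value of -1 or lower was reached by 6 of the 54 (CDC6, MCM10, RFC4, CLSPN, WDHD1 and DONSON), against 1.44% of all tested genes. DESeq2 also called 47 lower and 0 higher (17.7% and 18.8% of all tested genes), and the fit with the replicate number as a block 48 lower and 0 higher (21% and 20% of all).

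The summed level of the 54 genes was 6876, 5678 and 5402 CPM without GCA and 4828, 3769 and 3782 CPM with it. The lowest CON library thus stood above the highest GCA library, with CON 1 and GCA 1 the highest of their groups. Without CON 1 the test called 47 genes lower (27.3% of all tested genes were called lower then), and without both libraries numbered 1 it called 49 lower and 1, POLD2, higher (29.3% and 29.3% of all tested genes). Leaving out GCA 3 left 35 calls (8.88% of all), and leaving out GCA 2 left 39 (11.7%). Of the 47 called genes, 33 were called lower under each of the 19 alternatives run.

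**Figure D1:**
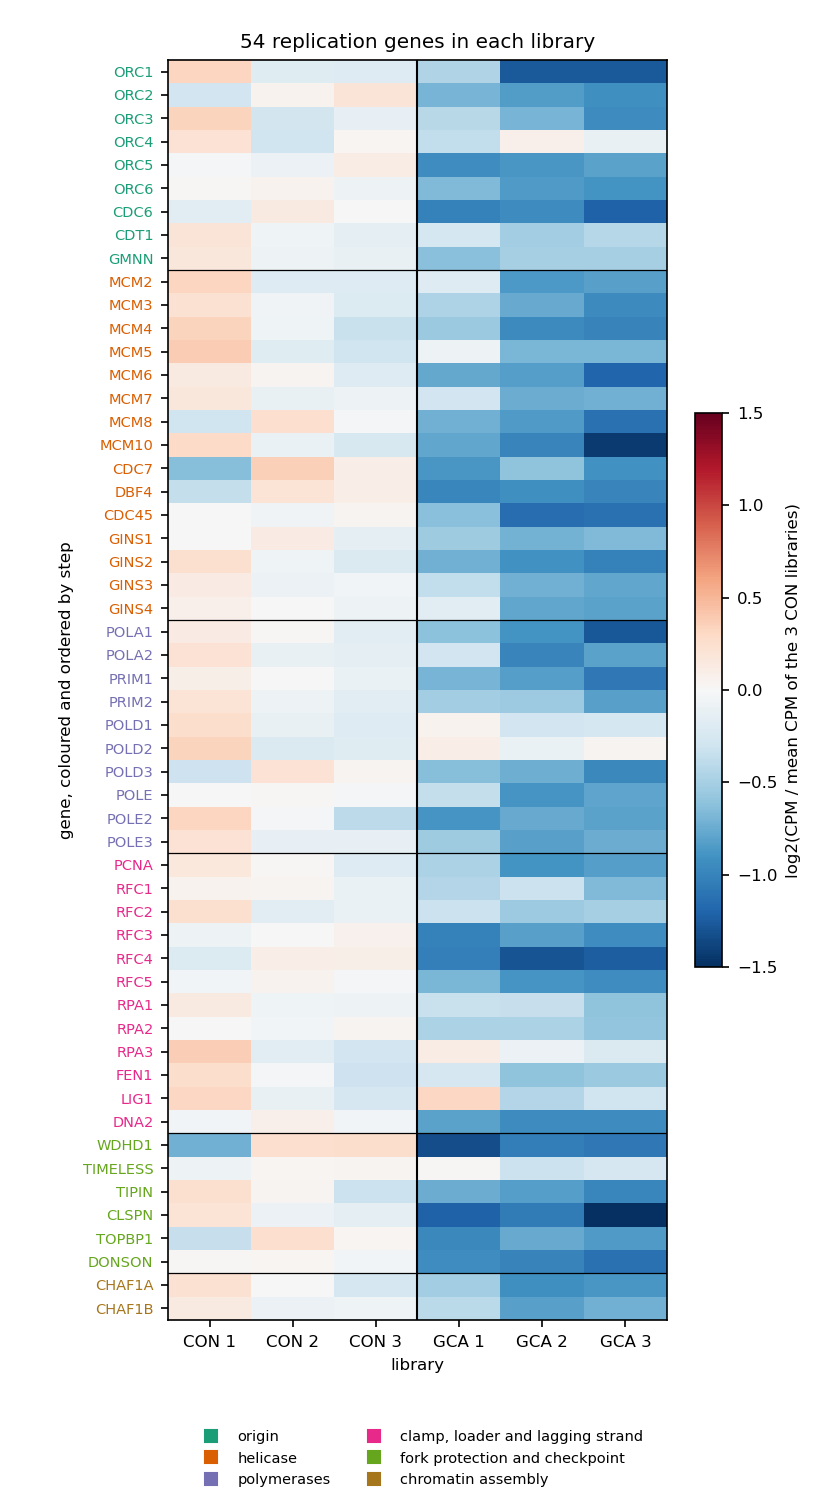
Level of each of the 54 genes (rows, ordered by step) in each of the 6 libraries (columns), as log2 of CPM over the mean CPM of the 3 CON libraries, blue for lower and red for higher. Most cells of the 47 genes called lower are blue in the 3 GCA columns. In GCA 1 some of these genes are pale, among them GINS4, MCM2, FEN1 and CDT1. ORC4, POLD1, POLD2, RPA3, LIG1 and TIMELESS, which were not called, are among the paler rows. MCM5, also not called, is blue in GCA 2 and GCA 3 and pale in GCA 1.

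Of the 9 origin genes 8 fell and 0 rose (median log2 -0.80). CDC6 (chromosome 17, 40287879 to 40304657, GRCh38), the ATPase that brings the MCM ring to ORC, had 62.2, 76.5 and 70.0 CPM without GCA and 34.4, 36.2 and 30.1 CPM with it. All 3 GCA libraries lay well under the lowest CON library. CDC6 fell by 1.05 ± 0.13 on the log2 scale (SE, n = 3 per group; adjusted p = 8.99e-05), from 69.6 ± 7.15 to 33.6 ± 3.12 CPM (SD). ORC6 (chromosome 16, 46689659 to 46698394), the smallest ORC subunit, had 31.8, 32.6 and 29.7 CPM without GCA and 19.9, 17.4 and 16.9 CPM with it. Its groups did not overlap, and it fell by 0.80 ± 0.13 (adjusted p = 0.000628).

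ORC5, an ATPase-fold subunit of the complex, went from 16.6, 15.96 and 18.4 CPM to 8.88, 9.31 and 9.74 CPM. It fell by 0.87 ± 0.15 (adjusted p = 0.000848), with little spread in either group. ORC2 had 18.6, 23.5 and 25.9 CPM without GCA and 13.9, 12.7 and 11.9 CPM with it, and fell by 0.82 ± 0.16 (adjusted p = 0.00186). ORC1, the subunit known to be made and destroyed with the cell cycle, fell by 0.94 ± 0.21 (adjusted p = 0.0046), with GCA 1 at 42.0 CPM and the other GCA libraries both at 24.0 CPM. ORC4 was the exception in the complex. It had 28.5, 20.02 and 25.1 CPM without GCA and 19.1, 25.9 and 22.7 CPM with it, so the groups overlapped (log2 -0.12 ± 0.16; adjusted p = 0.584).

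CDT1, which loads MCM rings together with CDC6, was the most abundant origin gene at 137 FPKM over all libraries, against 17.4 FPKM for CDC6 and 5.75 FPKM for its inhibitor geminin (GMNN). CDT1 had 474, 396 and 377 CPM without GCA and 346, 289 and 308 CPM with it. It fell by 0.40 ± 0.13 (adjusted p = 0.0332), the smallest change among the called genes. The CDT1 call was lost without CON 2 (adjusted p = 0.0761), GCA 2 (0.133) or GCA 3 (0.128), and narrowly with DESeq2's size factors (0.0508), while the correction for GC content and length described further on gave -0.91 (adjusted p = 0.000652). GMNN had 30.5, 25.7 and 25.1 CPM without GCA and 17.5, 19.2 and 19.1 CPM with it, and fell by 0.54 ± 0.13 (adjusted p = 0.00811); with that correction it stood at -0.30 (adjusted p = 0.137). ORC3 fell by 0.67 ± 0.18 (adjusted p = 0.0121), a call lost without GCA 2 (0.0541) or GCA 3 (0.0749) and with the correction (0.213), but kept where the replicate block was added to the correction (0.0296).

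Of the 15 helicase genes 14 fell and 0 rose (median log2 -0.79). MCM6 (chromosome 2, 135839626 to 135876443), whose promoter is printed above with its joined E2F words, had 111, 104 and 88.4 CPM without GCA and 59.7, 57.2 and 44.4 CPM with it. The groups stayed clear of each other and MCM6 fell by 0.92 ± 0.14 (adjusted p = 0.000453). CDC45 (chromosome 22, 19479466 to 19520612), which joins the ring at origin firing, had 48.4, 46.4 and 49.3 CPM without GCA and 31.1, 21.7 and 22.1 CPM with it. CON libraries hardly varied, GCA 1 stood above the other GCA libraries, and CDC45 fell by 0.94 ± 0.15 (adjusted p = 0.000458). GINS2 (chromosome 16, 85676198 to 85688954), one of the 4 proteins of the GINS complex, had 73.1, 59.2 and 53.0 CPM without GCA and 37.5, 33.0 and 30.5 CPM with it. It fell by 0.87 ± 0.14 (adjusted p = 0.000598), and the other GINS genes fell too, by 0.63 (GINS1), 0.61 (GINS3) and 0.55 (GINS4). The GINS3 call was lost without GCA 3 (adjusted p = 0.0519), and the GINS4 call without CON 2 (0.0521), GCA 2 (0.103) or GCA 3 (0.112) and with the GC and length correction (0.0736; kept at 0.0141 where the block was added).

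DBF4 (chromosome 7, 87876493 to 87909553), the activating partner of the CDC7 kinase, had 21.9, 32.3 and 30.1 CPM without GCA and 14.2, 14.9 and 14.1 CPM with it. It fell by 0.96 ± 0.16 (adjusted p = 0.000688) with non-overlapping groups. CDC7 itself had 7.85, 15.7 and 13.1 CPM without GCA and 6.65, 8.04 and 6.50 CPM with it. Its CON 1 value was far below the other CON libraries and under GCA 2, so the groups overlapped. CDC7 fell by 0.79 ± 0.23 (adjusted p = 0.0178). Its log2 value was -0.56 without CON 2, -0.73 without GCA 1 and -0.74 without GCA 3, each without passing (adjusted p = 0.0986, 0.0724 and 0.0845). It was -0.49 with the correction (0.0772), -0.47 with the block added to it (0.0552) and -0.58 on log2(FPKM + 1) (0.0528), also without passing. MCM10, a factor needed to start unwinding, fell by 1.04 ± 0.19 (adjusted p = 0.00131), the largest change at this step. MCM8, a paralog known from recombination repair and not part of the replicative ring, fell by 0.88 ± 0.19 (adjusted p = 0.00326).

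**Figure D2:**
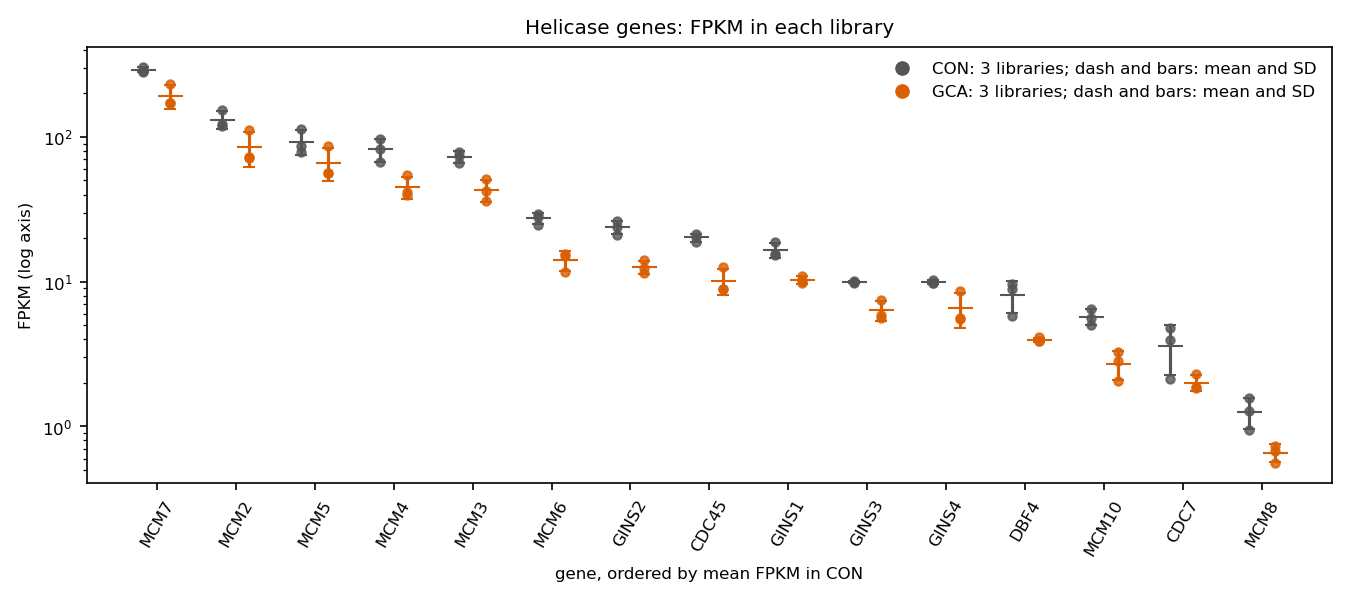
FPKM on a log axis for the 15 helicase genes, ordered by mean FPKM in CON, with 3 points per group, the mean as a dash and the SD as bars (grey CON, orange GCA). MCM7 is the highest at 291 FPKM in CON and 191 FPKM in GCA, MCM8 the lowest at 1.26 and 0.659 FPKM, and the order of the genes is close to the same in both groups.

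The ring's subunits differed widely in level. MCM7, the most abundant of the 54 genes, had 954, 783 and 801 CPM without GCA and 696, 506 and 513 CPM with it. GCA 1 was the highest of its group but still below every CON library, and MCM7 fell by 0.57 ± 0.16 (adjusted p = 0.0131; 0.0765 without GCA 2 and 0.0912 without GCA 3). By FPKM, MCM7 made up 41.9% ± 2.57 (SD, n = 3) of the summed MCM2 to MCM7 level in CON and 43.1% ± 0.986 in GCA. MCM6 made up 3.94% ± 0.393 and 3.21% ± 0.521, the least of the ring. MCM2 had 575, 404 and 402 CPM without GCA and 402, 253 and 261 CPM with it, so that GCA 1 lay between CON 3 and CON 2. It fell by 0.59 ± 0.19 (adjusted p = 0.0306; 0.144 without GCA 2 and 0.155 without GCA 3). MCM4 fell by 0.82 (adjusted p = 0.00341) and MCM3 fell by 0.71 (0.00354), both with non-overlapping groups. MCM5 did not pass: it had 495, 333 and 309 CPM without GCA and 360, 235 and 235 CPM with it, with GCA 1 above CON 2 and CON 3 (log2 -0.45 ± 0.20; adjusted p = 0.0949). With the replicate number as a block MCM5 did pass (adjusted p = 0.0071), as it did without CON 3 (0.0484), without GCA 1 (0.0355), without both libraries numbered 1 (4.85e-05) and after correcting for GC content and length (log2 -0.71; 0.0298).

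Of the 10 polymerase genes 8 fell and 0 rose (median log2 -0.68). PRIM1 (chromosome 12, 56731580 to 56752323), the catalytic subunit of primase, had 41.0, 38.8 and 36.0 CPM without GCA and 23.9, 21.7 and 18.4 CPM with it. It fell by 0.86 ± 0.13 (adjusted p = 0.000488), with no overlap. POLA1 (chromosome X, 24693918 to 24996986), the catalytic subunit of polymerase alpha, had 24.9, 23.1 and 20.6 CPM without GCA and 14.9, 12.3 and 9.48 CPM with it. The fall of POLA1 was 0.90 ± 0.17 (adjusted p = 0.00183). The accessory subunits of these enzymes, POLA2 and PRIM2, fell by 0.66 and 0.62 (adjusted p = 0.0105 and 0.00727). POLA2 lost its call without GCA 2 (0.0633) or GCA 3 (0.0649), and PRIM2 lost it with the correction (0.184).

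The subunits of polymerases epsilon and delta were measured next. POLE, the catalytic subunit of polymerase epsilon, had 177, 179 and 173 CPM without GCA and 138, 95.5 and 102 CPM with it. Its CON libraries were nearly level, all GCA libraries lay lower, and it fell by 0.66 ± 0.14 (adjusted p = 0.00365). POLE3, a histone-fold subunit of the same enzyme, had 148, 117 and 117 CPM without GCA and 87.8, 72.3 and 76.3 CPM with it, and fell by 0.69 ± 0.13 (adjusted p = 0.00188). POLE2, a further subunit, fell by 0.81 ± 0.19 (adjusted p = 0.00543). For polymerase delta, POLD3 fell by 0.77 ± 0.19 (adjusted p = 0.00764), but the catalytic subunit POLD1 and the subunit POLD2 did not pass. POLD1 had 218, 168 and 159 CPM without GCA and 188, 149 and 152 CPM with it (log2 -0.16 ± 0.15; adjusted p = 0.416). POLD2, the third most abundant of the 54 genes at 185 FPKM, had 513, 350 and 359 CPM without GCA and 437, 381 and 420 CPM with it (log2 0.02 ± 0.16; adjusted p = 0.936).

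The direction of POLD2 depended on the processing. CON 1 was above every other library, and the other CON libraries were below all of GCA. Without both libraries numbered 1 POLD2 rose by 0.20 (adjusted p = 0.0231), and after that correction it fell by 0.36 (adjusted p = 0.048). POLD1 fell with it too (log2 -0.64; adjusted p = 0.0089). Whether the subunits of an enzyme changed differently from each other was not tested.

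Of the 12 genes of the clamp, its loader and the lagging strand 10 fell and 0 rose (median log2 -0.49). RFC4 (chromosome 3, 186789900 to 186806482), a small subunit of the clamp loader, had 41.6, 51.4 and 51.1 CPM without GCA and 23.6, 19.7 and 20.4 CPM with it. It fell by 1.18 ± 0.13 and had the lowest adjusted p of the 54 genes (5.99e-05; up to 0.00172 over the alternatives). RFC3 (chromosome 13, 33818149 to 33977377) had 31.0, 32.9 and 34.3 CPM without GCA and 16.2, 18.6 and 17.2 CPM with it, and fell by 0.92 ± 0.13 (adjusted p = 0.000237). RFC5 (chromosome 12, 118016703 to 118041448) had 75.02, 80.2 and 76.0 CPM without GCA and 48.0, 41.6 and 40.4 CPM with it, and fell by 0.83 ± 0.12 (adjusted p = 0.000261). These small loader subunits had clearly separated groups. RFC1, the large subunit, and RFC2 fell by 0.46 ± 0.13 and 0.45 ± 0.13 (adjusted p = 0.0167 and 0.0189). The RFC1 call was lost without CON 2 (0.0721) or GCA 3 (0.0904) and with the correction (log2 -0.18; 0.317), and the RFC2 call without GCA 2 (0.0854) or GCA 3 (0.0852).

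PCNA (chromosome 20, 5114953 to 5126622), the sliding clamp and the second most abundant of the 54 genes at 216 FPKM, had 419, 380 and 330 CPM without GCA and 271, 202 and 212 CPM with it. All GCA libraries were lower, and PCNA fell by 0.72 ± 0.15 (adjusted p = 0.00263). DNA2, a nuclease and helicase that trims lagging-strand flaps, had 9.63, 10.4 and 9.58 CPM without GCA and 5.66, 5.14 and 5.13 CPM with it, and fell by 0.89 ± 0.17 (adjusted p = 0.00161). FEN1, the main flap nuclease, fell by 0.46 ± 0.15 (adjusted p = 0.0331). Its GCA 1 value of 128 CPM lay above CON 3 at 123 CPM, and its call was lost without CON 2 (0.08), GCA 2 (0.136) or GCA 3 (0.141). LIG1, the ligase that seals Okazaki fragments, had 148, 110 and 100 CPM without GCA and 148, 88.2 and 97.4 CPM with it. The groups overlapped and LIG1 did not pass (log2 -0.10 ± 0.19; adjusted p = 0.702).

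The RPA complex coats unwound DNA, and 2 of its 3 genes fell. RPA2 and RPA1 fell by 0.51 ± 0.11 and 0.42 ± 0.12 (adjusted p = 0.00342 and 0.0179). The RPA1 call was lost without GCA 3 (adjusted p = 0.11). RPA3, the smallest subunit, had 67.8, 47.0 and 43.0 CPM without GCA and 56.9, 49.4 and 45.1 CPM with it. CON 1 was the highest library and the rest overlapped (log2 -0.06 ± 0.16; adjusted p = 0.804).

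Of the 6 genes of fork protection and checkpoint signalling 5 fell and 0 rose (median log2 -0.93). DONSON (chromosome 21, 33577551 to 33588684), which helps assemble and stabilise the replicative helicase, had 28.0, 28.1 and 26.8 CPM without GCA and 14.5, 13.8 and 12.7 CPM with it. Each group was tight, and it fell by 1.01 ± 0.13 (adjusted p = 0.00015). CLSPN (chromosome 1, 35720213 to 35769978), which encodes claspin, the adaptor that brings CHK1 to stalled forks, had 20.8, 16.9 and 16.5 CPM without GCA and 7.79, 8.76 and 5.39 CPM with it. It fell by 1.30 ± 0.19 (adjusted p = 0.000346), the largest change of the 54 genes. TOPBP1, an activator of the ATR kinase that also acts in origin firing, had 20.2, 30.5 and 26.0 CPM without GCA and 13.1, 15.1 and 14.1 CPM with it, and fell by 0.86 ± 0.16 (adjusted p = 0.00176). WDHD1, which links the helicase to polymerase alpha, fell by 1.14 ± 0.23 (adjusted p = 0.00274), with CON 1 at 11.0 CPM against 21.6 and 22.0 CPM in the other CON libraries.

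TIMELESS and TIPIN form a complex that travels with the fork, and they differed in their calls. TIPIN had 25.7, 22.4 and 17.4 CPM without GCA and 13.1, 12.3 and 11.1 CPM with it, and fell by 0.85 ± 0.17 (adjusted p = 0.0021). TIMELESS had 81.8, 88.5 and 89.3 CPM without GCA and 87.9, 69.3 and 72.4 CPM with it, so GCA 1 lay within the range of CON (log2 -0.18 ± 0.12; adjusted p = 0.277). Without both libraries numbered 1 TIMELESS fell by 0.30 (adjusted p = 0.00341). The difference between the partners was not tested.

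Both genes of the chromatin assembly factor CAF-1, which places new histones behind the fork, fell. CHAF1A (chromosome 19, 4402640 to 4450830) had 119, 101.4 and 85.8 CPM without GCA and 71.1, 54.2 and 55.9 CPM with it, a fall of 0.76 ± 0.15 (adjusted p = 0.00209). CHAF1B (chromosome 21, 36385392 to 36419015) had 76.9, 66.2 and 67.3 CPM without GCA and 52.9, 39.8 and 42.4 CPM with it, a fall of 0.64 ± 0.13 (adjusted p = 0.00302). In both genes the groups were separate and GCA 1 was the highest GCA library.

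**Figure D3:**
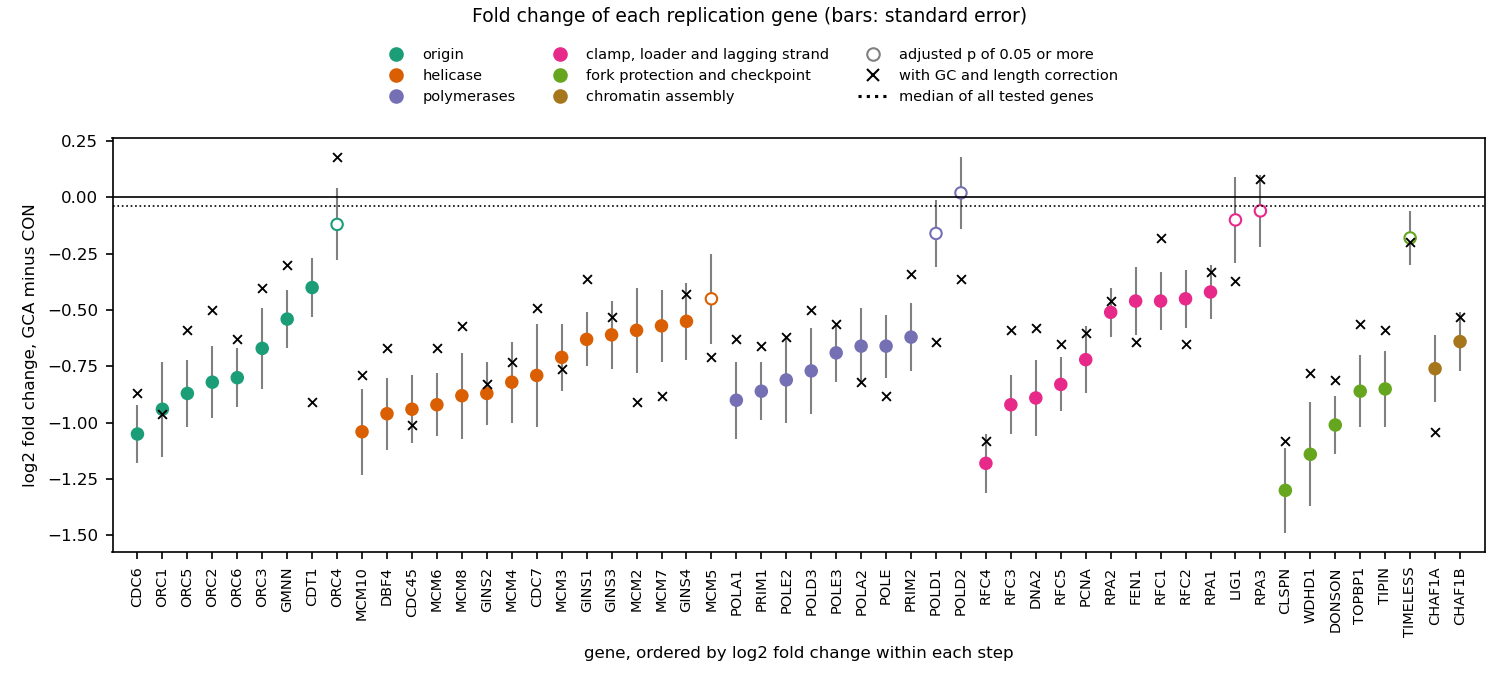
Log2 fold change (GCA minus CON) of each gene with its standard error, ordered within each step, filled where the adjusted p was under 0.05, with crosses for the fit corrected for GC content and length and a dotted line at the median of all tested genes (-0.04). All but 7 genes are filled and lie between -0.40 and -1.30.

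The 7 genes that did not pass (ORC4, MCM5, POLD1, POLD2, LIG1, RPA3 and TIMELESS) came from 5 of the 6 steps. In each of them the groups overlapped. The other 3 genes with overlapping groups, MCM2, CDC7 and FEN1, passed.

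Transcript GC content moved with the fold changes. Over the 12563 tested genes with a value the correlation across genes was 0.48, and over the 54 genes it was 0.49, as descriptions only, since genes are not independent replicates and share the same libraries. The 54 genes had a median GC content of 45.3% (range 37.6% to 65.0%), against 49.9% for all tested genes. GC content also moved with the difference between replicates: the log2 difference of GCA 1 from the other GCA libraries correlated with it at 0.56 over the 54 genes, and that of CON 1 at 0.48. CON 1 was the highest CON library for 34 of the 54 genes (38.0% of all tested genes) and GCA 1 the highest GCA library for 41 (37.4% of all). The 9 genes with at least 55% GC, a limit chosen after seeing the data, had a median log2 value of -0.45 with 5 called lower, and the 26 genes under 45% had -0.86 with 25 called lower.

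With the correction for GC content and length 44 of the 54 genes were called lower and 0 higher, against 17.6% and 11.8% of all tested genes, and the median was -0.63. Of the 47 genes called without it, 41 were called lower with it. ORC3, GMNN, CDC7, GINS4, PRIM2 and RFC1 lost their call, and MCM5, POLD1 and POLD2 gained one. Where the replicate block was added to the correction, 47 were called lower and 0 higher (21.5% and 13.8% of all tested genes): ORC3 and GINS4 passed and LIG1 gained a call (log2 -0.38; adjusted p = 0.0103). With the correction alone, the 9 GC-rich genes had a median of -0.88 with 8 called lower, and the 26 GC-poor genes -0.59 with 20 called lower. Corrected log2 values correlated with GC content at -0.33 over the 54 genes and 0.0 over tested genes with a value, as descriptions only. CHAF1A and CDC45 stood at -1.04 and -1.01 after the correction, RFC4 and CLSPN both at -1.08, and MCM2, CDT1 and MCM7 at -0.91, -0.91 and -0.88. The correction removes any difference between groups that follows GC content or length, and what part of it is technical was not tested.

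**Figure D4:**
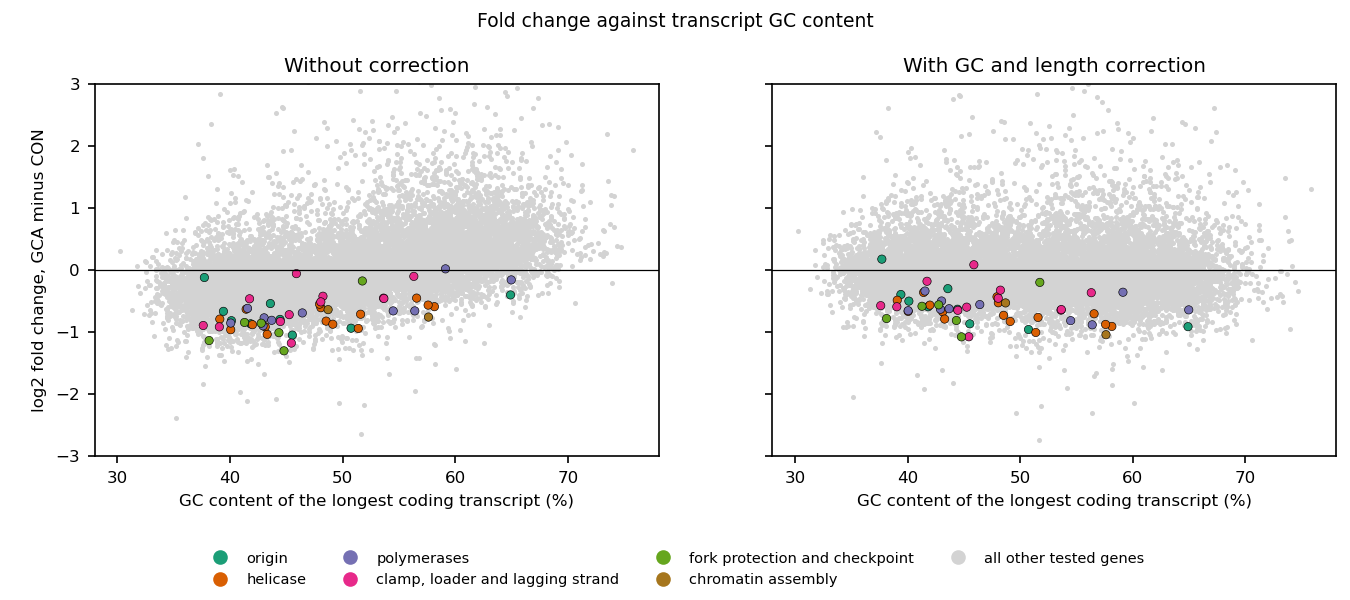
Log2 fold change (GCA minus CON) against GC content of the longest coding transcript, without correction (left) and with the GC and length correction (right), with the 54 genes coloured by step and all other tested genes in grey, 43 and 39 of which lie outside the plotted range of 3 on either side of 0. The grey cloud slopes upward on the left and is level on the right, and most coloured points lie under 0 in both panels.

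Related lists were read from the same fit. Of 31 further replication factors 30 were tested and 16 fell (median log2 -0.52), with the lowest p in DSCC1 of an alternative clamp loader (-1.07 ± 0.13; adjusted p = 9.93e-05), the MCM-binding protein gene MCMBP (-0.92 ± 0.11; 0.000107), MMS22L, which acts at damaged forks (-1.40 ± 0.18; 0.000147), and DTL, whose product targets CDT1 for destruction (-0.99 ± 0.16; 0.000511). None of the 30 rose with all libraries. POLE4, LRWD1 and RNASEH2C, named after their values were seen, rose without CON 1 (by 0.47, 0.41 and 0.55) and without both libraries numbered 1 (by 0.58, 0.39 and 0.64), whereas LRWD1 fell by 0.27 with the correction and the block (adjusted p = 0.0275). Of 10 genes of nucleotide supply 6 fell, with RRM2 and RRM1 of ribonucleotide reductase at -1.22 and -0.76, and DCK and DUT at -0.56 and -0.54. With the correction neither DCK (0.0994) nor DUT (0.0781) passed, and where the block was added DUT passed (0.0139) and DCK did not (0.0674). The direction of 3 further genes of this list, named after their values were seen, depended on the processing. TK1, DTYMK and DCTPP1 rose without both libraries numbered 1, by 0.17, 0.25 and 0.31, and DTYMK and DCTPP1 also without CON 1, by 0.27 and 0.26. With the correction TK1 and DTYMK both fell by 0.43 (adjusted p = 0.0498 and 0.0209), and with the block added by 0.44 and 0.42 (0.00503 and 0.00511).

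Of 26 regulators of the step from G1 to S phase 16 fell and 0 rose. With the correction 1 of them rose, TFDP2, a partner of E2F proteins (log2 0.32; adjusted p = 0.0448, and 0.0247 with the block added), named after its value was seen. CCNA2 (cyclin A2) and the kinase gene CDK6 fell by 0.95 and 1.18, the kinase inhibitor gene CDKN1A, whose product is known to hold cells out of S phase, by 0.85, and FBXO5, an inhibitor of the anaphase-promoting complex, by 0.86. Of the 8 E2F genes, named after their values were seen, 4 fell: E2F7, E2F8, E2F2 and E2F3, by 1.20, 0.90, 0.79 and 0.35. The E2F3 call (adjusted p = 0.0366) was lost with the correction (log2 -0.11; 0.461), at a minimum count of 50 (0.0522), on both log2 FPKM scales and when any library other than CON 1 was left out (up to 0.172). E2F1, E2F4, E2F5 and E2F6 did not pass (log2 -0.15, -0.18, 0.08 and -0.26). E2F1 and E2F4 passed with the correction (log2 -0.61 and -0.53; adjusted p = 0.00329 and 0.00231), and E2F6 without CON 1 (-0.38; 0.0227). Of 25 genes of mitosis 21 fell and 0 rose (84.0%; median -0.61), with the lowest p in NDC80 (-0.96), BUB1 (-0.73), KIF23 (-0.72) and HMMR (-0.71), and the largest fall in CENPE (-1.13), named after its value was seen. With the replicate block 4 further genes of the related lists passed: PCLAF (adjusted p = 0.0152), MYBL2 (0.00734), PLK1 (0.0444) and CENPF (0.0459), which took mitosis to 23 of 25. Without correction or block, the 84.0% of mitotic genes called lower stands beside 87.0% of the 54 replication genes. With the GC and length correction 15 of the 25 mitotic genes were called lower (median -0.43), against 44 of the 54 (median -0.63). Where the block was added to the correction, 18 of the 25 were called lower, against 47 of the 54. These differences were not tested.

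**Figure D5:**
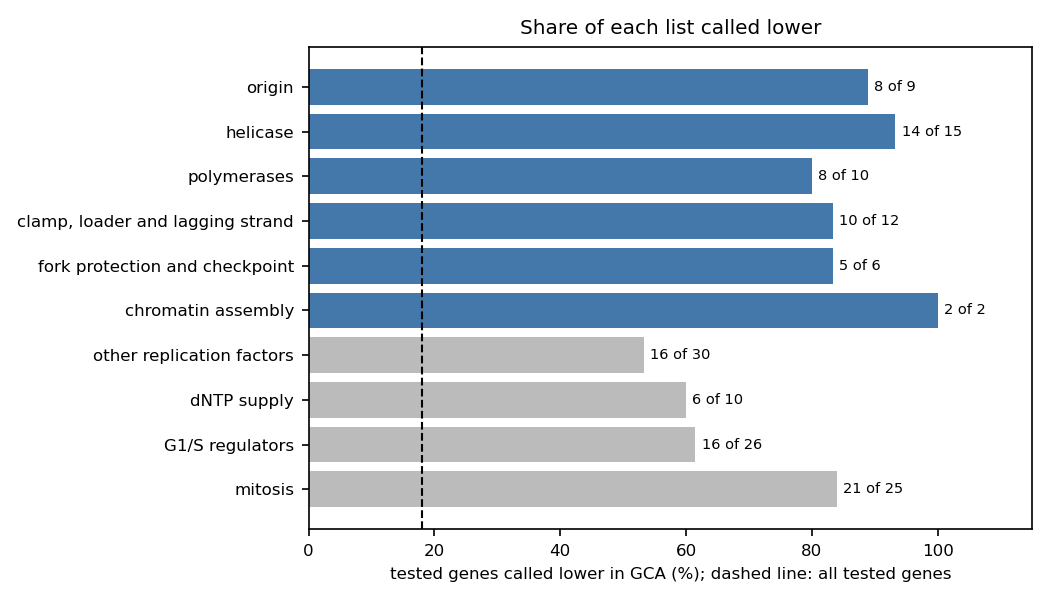
Percent of tested genes called lower in GCA for each of the 6 steps (blue) and for 4 related lists (grey), with the counts beside each bar and a dashed line at 18.1%, the share over all tested genes. The steps lie between 80.0% and 100% and the related lists between 53.3% and 84.0%.

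Some counts may hold reads of other genes. In GENCODE release 29, over 20% of the exonic bases of MCM2, GINS4, POLA2, PRIM1 and TIPIN overlap exons of another gene, and 7 of the 54 genes (DBF4, POLD2, PCNA, RFC3, RFC5, RPA2 and FEN1) have a pseudogene named after them. The sources used here do not give the strand setting of the counting, so the values of these genes are uncertain to that extent.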

How the data were processed

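The authors deposited raw counts per gene symbol and FPKM values for the 6 libraries. Per the submitters' processing notes, HTSeq 0.11.2, HISAT2 2.2.1.0, fastp 0.20.1 and the hg38 build were used; the sources used here give no annotation, strand setting or filter. A deposited FPKM value equalled count over library total and gene length (relative tolerance 1e-09, 16229 of 16229 genes), so FPKM adds no independent measurement. Columns were matched to samples by title and groups taken from the treatment label. The comparison used edgeR 4.0.16 (R 4.3.3) on the counts: TMM scaling, glmQLFit and glmQLFTest on genes kept by filterByExpr (minimum count 10 and total 15), two-sided, Benjamini-Hochberg over 12604 genes at 0.05, n = 3 per group. The standard error is the log2 fold change over the square root of F. The edgeR code without block or correction was tested on simulated counts, drawn with the same dispersion for every gene. They held no GC trend and no outlying library, and the other fits were not tested this way.

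Alternatives were other scalings and filters, DESeq2 1.42.0, limma 3.58.1 (voom, and on log2(FPKM + 1) and log2(FPKM + 0.1)), a replicate block, leaving out libraries, and a GC and length correction. The correction fits natural splines (5 degrees of freedom each) of GC content (GENCODE 29 transcripts, 99.2% of genes, 54 of 54 members) and log length per library and enters them as offsets. Replicate numbers were checked for pairing: libraries of the same number, as deviations from their group's mean, correlated at 0.206, 0.137 and 0.104 across genes. Libraries of different numbers correlated at -0.172 to 0.095. The highest of these, CON 3 with GCA 2, lay close to the 0.104 of CON 3 with GCA 3. As each same-number value was over 0.1, blocked values are given where they change a call of the uncorrected fit or of a corrected value that is printed.

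Members, lists and tests were chosen with earlier results of these data known. Genes given in full were the 4 with the lowest p in each step, those not called, and the 3 with the highest FPKM; of related lists, the 4 with the lowest p. Other genes were described after their values were seen. CHTF8 was not analysed here. Coordinates are from RefSeq (GRCh38.p14). Sampling depth limits low genes little: 3 counts correspond to 0.146 to 0.166 CPM, for counting error only.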

Additional observations from a re-analysis of the deposited data

How the results depend on the processing

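The count of replication genes called lower stayed between 44 and 48 with other scalings, filters and tests, the replicate block (48) and the GC and length correction (44; 47 with the block as well), and the count called higher stayed at 0. The share of all tested genes called lower was 14.8% to 21.5% over these settings and 8.88% to 27.3% with 1 library left out. Leaving out 1 library gave 35 to 48 lower and 0 higher, with 35 without GCA 3. Without both libraries numbered 1, an alternative chosen after seeing the data, 49 were lower and 1 higher. Over the whole table, where 4584 genes were called, leaving out 1 library gave 2621 (without GCA 3) to 6707 genes, with 3029 without CON 2, and leaving out both libraries numbered 1 gave 7419. By step, leaving out GCA 3 took the helicase count from 14 to 9 and the clamp, loader and lagging strand count from 10 to 6. It also took the further replication factors from 16 to 10 and mitosis from 21 to 13, and leaving out GCA 2 took mitosis to 13. The replicate block changed the call of 1 of the 54 genes, MCM5, and of 4 genes of the related lists; added to the correction it gained 3 and 8 calls and lost 0.

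Scaling moved the median of all tested genes from -0.04 to between -0.09 and -0.03. Sign changes among the 54 genes were limited to 4 that had not passed, and the cause was not tested. ORC4 turned to 0.18 with the GC and length correction, 0.21 with the block added, 0.00 without GCA 1 and 0.13 without both libraries numbered 1, and ran from -0.24 to 0.00 with 1 library left out. RPA3 turned to 0.08 with the correction, 0.10 with the block added, 0.16 without CON 1, 0.02 without GCA 3 and 0.10 without both libraries numbered 1 (-0.17 to 0.16 with 1 left out). LIG1 turned to 0.08 without CON 1 and 0.04 without GCA 2 (from -0.35 with 1 library left out), and passed at -0.38 with the block and the correction together (adjusted p = 0.0103). POLD2 turned to 0.00 with upper-quartile scaling, -0.01 with library size only and on both log2 FPKM scales, -0.36 with the correction, -0.35 with the block added, -0.07 without CON 2, -0.05 without CON 3 and -0.01 without GCA 1 (up to 0.22, without CON 1).

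Sign changes also occurred in 9 genes of the related lists that had not passed and are named elsewhere in the text. Further genes of these lists that had not passed changed sign with the correction. CHTF18 went from 0.01 to -0.55 (adjusted p = 0.00884) and POLD4 from 0.18 to -0.18. CIZ1 went from 0.09 to -0.23 (-0.24 and adjusted p = 0.0405 with the block added), and RRM2B from -0.20 to 0.14. With the correction, and with the block added, TK1 was at -0.43 and -0.44, DTYMK at -0.43 and -0.42, LRWD1 at -0.28 and -0.27, and RNASEH2C at -0.12 and -0.08; E2F6 reached 0.00 with both. TK1 ran from -0.05 to 0.28, DTYMK from -0.07 to 0.27, DCTPP1 from -0.12 to 0.26, E2F5 from -0.13 to 0.24, RNASEH2A from -0.11 to 0.12 and TFDP2 from -0.04 to 0.25 with 1 library left out. DTYMK was at 0.00 by library size only. DCTPP1, at about 0 in the reported fit, was at 0.01 with DESeq2 or its size factors, 0.04 with a minimum count of 50, limma-voom or the block, and 0.31 without both libraries numbered 1. That last setting gave 0.04 in RNASEH2A and -0.01 in TFDP2, and a minimum count of 50 gave 0.02 in RNASEH2A.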

Other observations

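Among the further replication factors, genes named here after their values were seen fall into groups by role. The origin-firing partners TICRR (treslin) and MTBP fell by 0.82 ± 0.16 and 0.94 ± 0.17 on the log2 scale (edgeR, adjusted p = 0.00213 and 0.00148), and DBF4B, the second activating partner of CDC7, by 0.69 ± 0.13 (0.00151). Each of these calls held under the 19 alternatives. MCM9, the partner of MCM8 in repair, stood at -0.25 (adjusted p = 0.359) beside a fall of 0.88 in MCM8.

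Of histone chaperones that act at forks, the FACT subunits SSRP1 and SUPT16H fell by 0.58 ± 0.13 and 0.61 ± 0.15 (adjusted p = 0.00472 and 0.00771), although SUPT16H lost its call without GCA 3 (0.0534) and with the GC and length correction (0.111; 0.0243 where the block was added). ASF1A and ASF1B, which hand histones to CAF-1, did not pass (log2 -0.30 and -0.15; adjusted p = 0.0958 and 0.421). ASF1A passed without CON 1 (adjusted p = 0.0487) but stood at -0.02 with the correction (adjusted p = 0.919). ASF1B passed with the correction (log2 -0.54, adjusted p = 0.0081). RNASEH2B, a subunit of the enzyme that removes ribonucleotides from DNA, fell by 0.77 ± 0.14 (adjusted p = 0.00124). Its catalytic partner RNASEH2A and the third subunit RNASEH2C did not pass (log2 -0.02 and 0.19; adjusted p = 0.925 and 0.507), and RNASEH2C rose without CON 1 (0.55; 0.00125).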
